A study of Arabidopsis thaliana with 8 samples.

Results

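The regions described here are dense runs of CO:CIT peaks, that is, stretches of the Arabidopsis thaliana genome in which peaks of the CO:CIT fusion protein followed each other at short distances. They were selected on measured values, namely the positions of the peaks called in both SUC2::CO:CIT replicates. A peak of replicate 1 was kept where it overlapped a replicate 2 peak by at least 1 bp, the summits of the kept peaks were sorted along each chromosome, summits at most 2000 bp apart were chained, and a chain was called a dense run where it held at least 4 summits. Of 16861 shared peaks, 2527 stood in 536 runs, which is 15.0%. A further 6971 shared peaks stood in chains of 2 or 3 and 7363 stood alone.

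The study asked whether abscisic acid (ABA) affects where the flowering regulator CONSTANS (CO) sits on chromatin. Chromatin immunoprecipitation with sequencing (ChIP-seq) was carried out on whole seedlings of SUC2::CO:CIT aba1-6, which carry the transgene in an ABA-deficient mutant, and of SUC2::CO:CIT in the Col-0 background, with 2 biological replicates of 5 g fresh weight each and an input library for each ChIP library. Both genotypes were grown under 16 h light and 8 h dark and carried CO fused to the fluorescent protein CITRINE, which was pulled down with a GFP-Trap nanobody. The SUC2 promoter drives the fusion in phloem companion cells, so that only a small share of the nuclei in a seedling was meant to hold it, at levels set by the transgene and not by the native CO promoter. The SUC2::CO:CIT aba1-6 replicates had 168 and 258 peaks, against 21054 and 22724 for the SUC2::CO:CIT replicates. The genome-wide background recovered from the lists was 3.57 and 0.774 fragments in the SUC2::CO:CIT aba1-6 libraries, against 11.2 and 10.8 fragments in the SUC2::CO:CIT libraries, so depth and genotype cannot be told apart.

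CO is a B-box zinc finger protein that promotes flowering in long days by activating FT, a mobile flowering signal made in companion cells. Its CCT domain joins a pair of NF-Y subunits, histone-fold proteins that bend DNA, and the complex reads short CO-responsive elements that hold the letters TGTG. Intergenic DNA in Arabidopsis is richer in A and T than genes are, and its longest stretches lie beside the centromeres and around some developmental regulators.

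The 5 summits of the run with the highest median fold enrichment are printed first, because the windows of 2 of them are near-copies of each other. The run covered chr2:2158793-2162992 (4200 bp, TAIR10.1), and all of its summits lay in a 5629 bp interval between the pseudogenes AT2G05740 and AT2G05750. Each line gives 200 bp around a summit on the forward strand, 5′ to 3′, and capitals mark stretches of at least 16 bases that occur without a mismatch in another summit window of the same run.
summit 1, chr2:2158824-2159023: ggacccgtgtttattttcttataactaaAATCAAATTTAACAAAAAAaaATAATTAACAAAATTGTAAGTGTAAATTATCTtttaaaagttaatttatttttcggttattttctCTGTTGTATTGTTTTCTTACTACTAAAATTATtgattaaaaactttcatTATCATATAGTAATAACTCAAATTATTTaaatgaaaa
summit 2, chr2:2159844-2160043: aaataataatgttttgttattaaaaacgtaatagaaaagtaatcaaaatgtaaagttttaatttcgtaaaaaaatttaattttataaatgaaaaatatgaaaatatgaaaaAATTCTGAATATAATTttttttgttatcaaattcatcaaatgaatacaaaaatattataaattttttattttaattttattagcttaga
summit 3, chr2:2160912-2161111: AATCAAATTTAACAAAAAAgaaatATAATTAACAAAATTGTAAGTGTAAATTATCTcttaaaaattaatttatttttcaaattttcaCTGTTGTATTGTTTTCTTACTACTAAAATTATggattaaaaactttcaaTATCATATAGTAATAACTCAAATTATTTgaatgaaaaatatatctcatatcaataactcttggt
summit 4, chr2:2161964-2162163: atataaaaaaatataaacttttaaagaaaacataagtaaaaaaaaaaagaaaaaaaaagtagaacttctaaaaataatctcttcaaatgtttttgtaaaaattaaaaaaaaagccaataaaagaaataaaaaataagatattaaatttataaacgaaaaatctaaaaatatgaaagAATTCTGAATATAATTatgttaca
summit 5, chr2:2162717-2162916: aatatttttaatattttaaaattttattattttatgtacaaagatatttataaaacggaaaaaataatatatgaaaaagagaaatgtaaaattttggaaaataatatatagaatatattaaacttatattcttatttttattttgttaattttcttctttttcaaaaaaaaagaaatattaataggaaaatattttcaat

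Summits 1 and 3 stood 2088 bp apart, and the longest stretch that their windows shared was 32 bases. In a local alignment of the 1000 bp around them, 645 of 700 aligned positions were identical (92.1%). The other 8 pairs whose windows did not overlap aligned over 31 to 736 positions with 64.9 to 85.6% identity, the longest of them between summits 2 and 4 (69.4%) and the most identical between summits 2 and 5 (231 of 270 positions). Fold enrichment, which sets the fragments at a summit over those of its local background, was 3.45 at summit 1 and 3.78 at summit 3 in replicate 1, and 4.56 and 4.39 in replicate 2. It was 5.99 at summit 2 and 6.40 at summit 4 in replicate 1, and 6.68 and 7.27 in replicate 2. Summit 5 had 5.58 in replicate 1 and 5.24 in replicate 2, and GC content in the 5 windows was 18%, 12.5%, 17.5%, 14% and 11.5% from summit 1 to summit 5. Summits 1 and 3, the near-copies, were the lowest of the run in both replicates, and their windows had the highest GC.

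Near-copies of this kind were rare among the runs. A 30-base word was shared, on either strand, by non-overlapping summit windows of the same run for 56 of 2527 run peaks (2.22%) in 23 of 536 runs (4.29%). In chains of 2 or 3 summits it was 34 of 6971 peaks (0.488%) in 17 of 3085 chains (0.551%), where fewer partners were on offer to each summit. In 4 runs, 4 summits each shared such a word, among them a run of 6 summits at chr3:8362088-8366746, which began 916 bp from AT3G23370, annotated as an RNA-binding protein gene.

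Windows of the run beside KNAT3 and of the run with the most summits are shown next, to set the highest summit of a run beside its lowest, both ranked in replicate 1. Capitals here mark TGTG, the letters at the heart of the CO-responsive element, and its reverse complement CACA.
KNAT3 run, highest summit, chr5:8735685-8735884: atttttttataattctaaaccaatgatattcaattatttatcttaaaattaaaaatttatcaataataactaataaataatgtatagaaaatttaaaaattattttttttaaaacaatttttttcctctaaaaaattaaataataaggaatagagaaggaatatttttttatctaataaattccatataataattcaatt
KNAT3 run, lowest summit, chr5:8729570-8729769: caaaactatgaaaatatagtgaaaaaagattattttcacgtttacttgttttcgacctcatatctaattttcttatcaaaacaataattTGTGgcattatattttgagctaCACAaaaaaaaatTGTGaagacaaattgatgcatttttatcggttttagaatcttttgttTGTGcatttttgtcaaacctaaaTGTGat
largest run, highest summit, chr2:6376371-6376570: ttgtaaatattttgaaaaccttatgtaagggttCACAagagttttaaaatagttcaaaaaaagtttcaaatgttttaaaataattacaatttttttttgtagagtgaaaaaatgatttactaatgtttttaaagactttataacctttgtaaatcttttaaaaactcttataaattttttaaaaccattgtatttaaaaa
largest run, lowest summit, chr2:6384287-6384486: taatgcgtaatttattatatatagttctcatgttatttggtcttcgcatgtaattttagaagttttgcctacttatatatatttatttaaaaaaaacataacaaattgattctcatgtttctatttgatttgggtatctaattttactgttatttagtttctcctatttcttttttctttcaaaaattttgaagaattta

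The KNAT3 window with the highest fold enrichment (5.99 in replicate 1 and 6.59 in replicate 2) held 12% GC and none of the marked letters, while the lowest in replicate 1 (2.46, with 3.46 in replicate 2, where 3 other summits were lower) held 25.5% GC and 5 of them. The first of these windows was the highest in both replicates. In the run with the most summits, the highest window in replicate 1 (4.60, with 4.65 in replicate 2) held 18% GC and 1 marked word, and the lowest in replicate 1 (2.38) held 21.5% GC and none. In replicate 2 the highest summit of that run was summit 7 (5.15) and the lowest summit 5 (2.87), and summits 10 and 11 met the same replicate 2 peak (3.72). Over all runs, TGTG or CACA occurred in the 100 bp around 32.1% of run summits, against 34.2% of other shared summits, 50.2% of all 100 bp windows of the genome and 33.9% of windows with under 25% GC. The longer word CCACA (or its reverse complement TGTGG) occurred at 4.16% of run summits, against 5.43% of other shared summits, 14.5% of all windows and 5.15% of windows with under 25% GC. CCAAT (or ATTGG), the box that NF-Y complexes read, occurred at 12.8% of run summits, against 13.6% of other shared summits, 19.4% of all windows and 13.6% of windows with under 25% GC. The word with the highest share was AAAAAA (or TTTTTT), at 63.9% of run summits, against 65.7% of other shared summits, 21.8% of all windows and 54.0% of windows with under 25% GC. TATATA occurred at 19.7% of run summits and at 19.4% of other shared summits, against 8.83% of all windows and 27.5% of windows with under 25% GC. A match to these letters is a description of the window. In 82.5% of the runs at least 1 summit window held TGTG or CACA.

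Chain length fell off steeply from single summits to the longest runs. There were 317 runs of 4 summits, 121 of 5, 57 of 6, 26 of 7, 11 of 8, 2 of 9, 1 of 11 and 1 of 13. The runs spanned 1831 to 12395 bp from the first peak start to the last peak end, with a median of 4240 bp, and together covered 2414 kb, or 2.03% of the 5 chromosomes. Neighbouring summits within a run were 313 to 2000 bp apart, with a median of 1030 bp (n = 1991), whereas the median over all neighbouring shared summits was 3554 bp. Peaks took up 19.8 to 84.0% of a run's span, with a median of 45.9%.

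**Figure D1:**
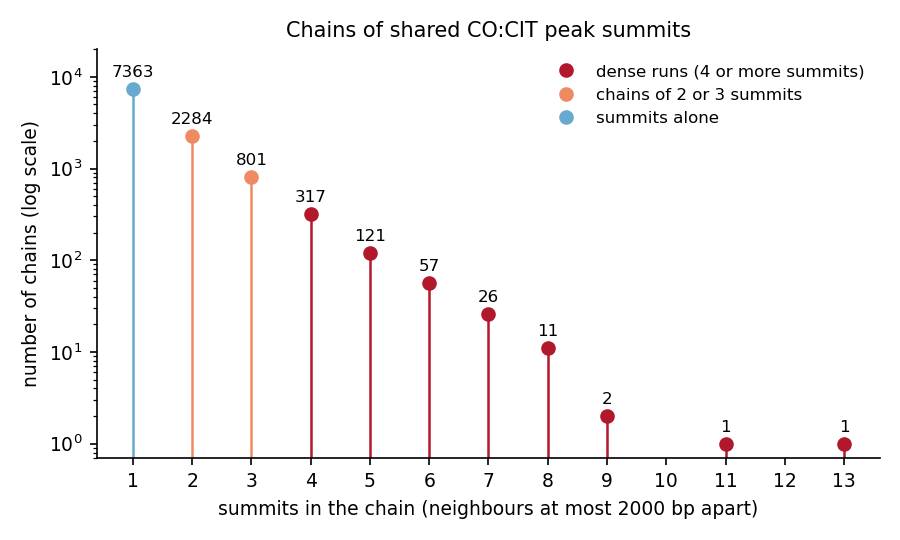
Number of chains (log scale) against the number of shared summits in the chain, with neighbours at most 2000 bp apart. Red points are the 536 dense runs, from 317 chains of 4 summits to 1 chain of 13, orange points are chains of 2 or 3, and the blue point is the 7363 summits that stood alone.

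The limits of 4 summits and 2000 bp did not fall at a break in the data. Chains of 4, just inside, had a median fold enrichment of 3.28 in replicate 1 and 3.38 in replicate 2, a mean summit GC of 20.7% and a median span of 3700 bp. Chains of 3, just outside, numbered 801 and had 3.20, 3.38, 20.9% and 2630 bp. Distances between neighbouring shared summits that lay up to 100 bp inside the 2000 bp limit numbered 210, and those up to 100 bp beyond it numbered 215. With a chain distance of 1000 bp there were 84 runs and with 3000 bp there were 908, so the number of runs depends on the limit.

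Most runs were also found when replicate 2 was chained. Replicate 2 peaks that overlapped a replicate 1 peak gave 521 runs with 2463 peaks, and 432 of the 536 replicate 1 runs (80.6%) overlapped 432 of these 521 runs (82.9%). Since both sets rest on the same shared peaks, this describes how far the summit positions of the replicates moved the chains. The summit of the replicate 2 peak with the largest overlap stood a median of 57 bp from run summits, against 51 bp for other shared summits. The 2527 run peaks met 2352 distinct replicate 2 peaks, and 98 of them met more than 1. Of the 536 runs, 271 held only peaks with a −log10 q-value of at least 5 in replicate 1, and 180 held only such peaks in both replicates.

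Peaks in runs were close in height to other shared peaks. The median fold enrichment in replicate 1 was 3.28 in run peaks, with an interquartile range of 2.87 to 3.94, against 3.28 in other shared peaks, with 2.87 to 3.86. In replicate 2 it was 3.46 in run peaks, with 2.96 to 4.06, against 3.30 in other shared peaks, with 2.87 to 3.89. The median difference was therefore 0 in replicate 1 and 0.169 in replicate 2. Each replicate 2 value is that of the replicate 2 peak with the largest overlap, so a broad peak can count for several run peaks. When replicate 2 was the base of the chains, the median difference was 0. These values come from the peak lists that chose the runs, so they are given without a test. The highest peaks of the shared set were not in runs, with a maximum of 7.72 in run peaks and 9.36 in other shared peaks in replicate 1, and of 7.27 and 8.53 in replicate 2. The other shared peaks are the larger set (14334, against 2527), so these maxima are not on equal terms. Run peaks held a median of 39 fragments in replicate 1 and 40 in replicate 2, against 39 and 39 in other shared peaks. They were wider, with medians of 356 bp in replicate 1 and 410 bp in replicate 2, against 336 and 357 bp. When replicate 2 was the base of the chains, the difference in median width was 16 bp. The local background was more than 1.5 times the genome level at 0 run peaks, against 17 other shared peaks, in both replicates. Across the 2527 run peaks, the log2 fold enrichments of the replicates had a Pearson r of 0.586, against 0.623 across the 14334 other shared peaks.

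Within a run the summits differed in height. The highest fold enrichment of a run was a median of 1.58 times the lowest in replicate 1, with a range of 1.07 to 3.48, and a median of 1.57 times in replicate 2. The largest run, with 13 summits, covered chr2:6373326-6385720, and its fold enrichment had a lowest value of 2.38, a median of 3.78 and a highest value of 4.60 in replicate 1, and a median of 3.72 in replicate 2. The run with 11 summits covered chr5:15143628-15154430, with a lowest value of 2.71, a median of 3.04 and a highest value of 5.83 in replicate 1. Its summit 10 was the highest in both replicates (5.83 and 5.92) and had the lowest GC of the run, 14.5%. The KNAT3 run had a lowest value of 2.46, a median of 3.00 and a highest value of 5.99 in replicate 1, and 2.79, 3.63 and 6.59 in replicate 2. In the runs of 11 and 8 summits a few tall summits stood among lower ones, whereas the heights in the run of 13 were spread more evenly.

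**Figure D2:**
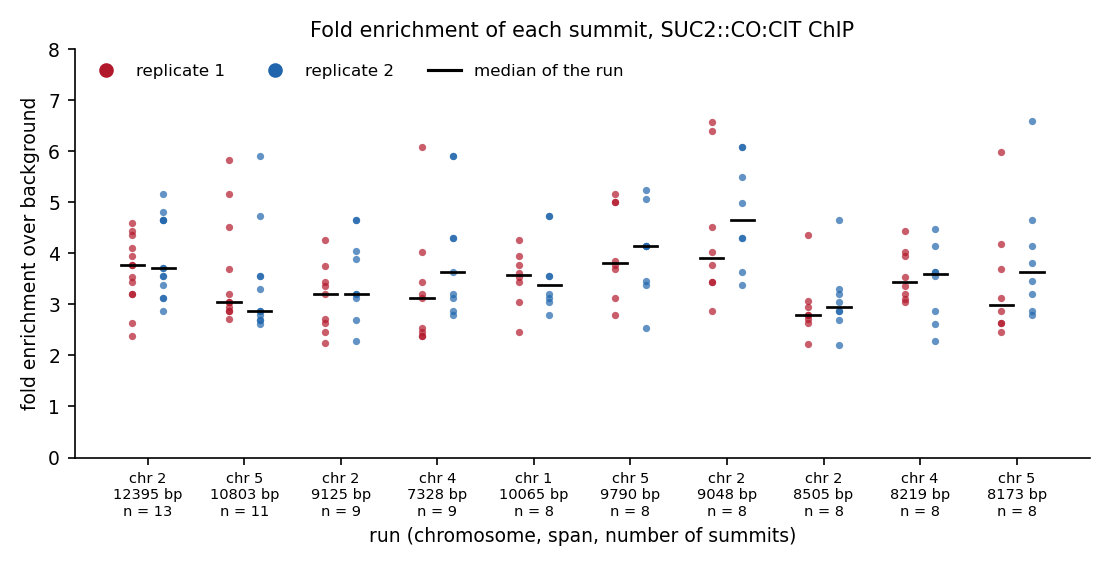
Fold enrichment over the local background (vertical axis) of each summit in the 10 runs with the most summits, in replicate 1 (red) and replicate 2 (blue) of the SUC2::CO:CIT ChIP. Points are summits and black bars are the medians of a run, which lay between 2.79 and 3.90 in replicate 1 and between 2.87 and 4.65 in replicate 2, with single summits reaching 5.83 to 6.59 in the runs of chromosomes 2, 4 and 5.

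Many runs overlapped no gene, and no expected count for DNA of like length was made. Of the 536 runs, 207 overlapped no gene at all, 264 overlapped no protein-coding gene, 203 overlapped 1 and 69 overlapped 2 or more, so that 361 protein-coding genes of 27444 were met in all. A pseudogene was met by 64 runs and a noncoding RNA gene by 62. Summits lay outside annotated genes for 90.1% of run peaks, against 87.6% of other shared peaks, and the share was higher in run peaks on each of the 5 chromosomes. In 375 runs every summit lay outside genes, and in 5 none did. Among the remaining run summits, 177 lay in introns of protein-coding genes (7.0%, against 6.39% of other shared summits), 45 in untranslated exons (1.78%, against 4.72%), 24 in pseudogenes, 3 in coding exons and 2 in noncoding RNA genes. Only 22.0% of run summits lay within 1000 bp upstream of a protein-coding start, against 36.5% in chains of 2 or 3 and 53.0% of summits alone. The run peaks thus lay mostly outside the stretch just before a start, and the peaks that stood alone lay mostly within it. The summits of a run extend over at least 1415 bp, so part of this difference is fixed by the choice.

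Runs lay in long intervals between genes. In 305 runs at least 4 summits shared a single interval between neighbouring genes, and in 250 runs every summit did. Intervals of 5 to 10 kb held 39.4% of run summits outside genes, against 18.5% of all shared summits outside genes, and 175 of the 1120 such intervals (15.6%) held 4 or more run summits. Of 145 intervals over 10 kb, 29 (20%) did, and of 5353 intervals of 2 to 5 kb, 97 (1.81%) did. None of the 18488 intervals under 1 kb and none of the 6519 intervals of 1 to 2 kb held 4. The first and last summits of a run stood at least 1415 bp apart, and short intervals have little room for 4 summits. Part of the rise with interval length is therefore fixed by the choice. Shared summits as a whole had a density of 3.13, 3.57, 3.67 and 3.75 per 10 kb in the 4 classes up to 10 kb, and the lowest density, 1.93 per 10 kb, in intervals over 10 kb, the class with the highest share of intervals with a run.

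**Figure D3:**
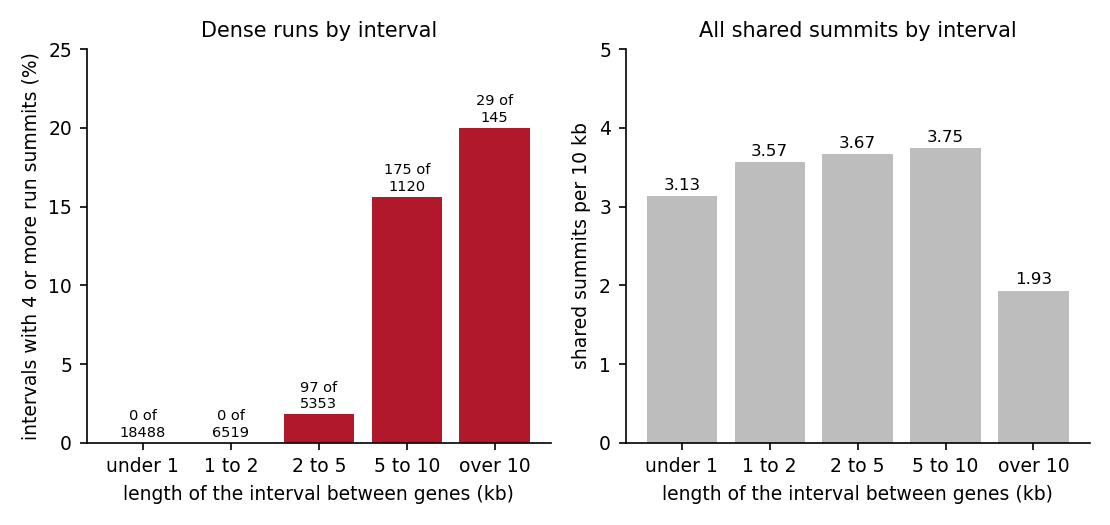
Left, percent of intervals between genes that held 4 or more run summits, by length of the interval in kb, with the counts above each bar. Right, all shared summits per 10 kb in the same classes. The share with a run reached 15.6% at 5 to 10 kb and 20% over 10 kb, whereas the density of shared summits lay between 3.13 and 3.75 up to 10 kb and was 1.93 above it.

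Along the chromosomes, runs were found on every chromosome and were denser on average where genes are sparse. Chromosomes 1 to 5 held 131, 102, 100, 82 and 121 runs, or 4.31, 5.18, 4.26, 4.41 and 4.49 per Mb. Of 240 windows of 500 kb, 161 held at least 1 run and the most in a window was 11, on chromosome 1 between 16500001 and 17000000. The 38 gene-poor windows, those with fewer than 50% of the chromosome's median number of protein-coding genes, held 128 runs or 6.89 per Mb, against 408 runs or 4.06 per Mb in the other 202 windows. Single windows varied. The gene-poor window of chromosome 3 between 13500001 and 14000000, with 1 protein-coding gene, held 0 runs, while the chromosome 1 window with 11 runs, also gene-poor, had 61. The window of chromosome 5 between 15000001 and 15500000, with 102 genes and not gene-poor, held 10. The short end window of chromosome 4, with 32 genes and 0 runs, was also counted as gene-poor. Shared peaks themselves were not denser in gene-poor windows, with 131 per Mb there and 144 per Mb in the others. Gene-poor windows held 24.3% of run peaks and 12.6% of other shared peaks, and 25.3% of the shared peaks in gene-poor windows stood in runs, against 13.2% elsewhere. Run peaks also lay in less unique sequence. A summit window in which every 30-base word occurred once in the genome was found at 63.8% of run peaks and 77.5% of other shared peaks, and the part that uniqueness of mapping has in the runs was not tested. Among run peaks, median fold enrichment in replicate 1 was 3.45 where the window was not fully unique (n = 914) and 3.20 where it was (n = 1613), and the same values, 3.45 and 3.20, were found among other shared peaks. In 159 runs (29.7%) every summit window was fully unique.

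In GC content run summits were close to other shared summits, and run spans held less GC than the genome as a whole. The 200 bp around run summits held 20.6% GC on average, against 21.1% around other shared summits, a difference of −0.53 percentage points. The mean was lower in run peaks on each of the 5 chromosomes, but not in gene-poor windows, where it was 20.22% in run peaks and 20.15% in other shared peaks. Split by uniqueness, it was 21.3% in run peaks and 21.6% in other shared peaks where the window was fully unique, and 19.39% and 19.44% where it was not. GC was under 20% at 39.8% of run summits, against 34.1% of other shared summits, and ranged from 9 to 33.5% in runs, against 8 to 63% outside them. Over whole spans, which include the summit windows, runs held 26.8% GC, against 36.0% in the genome and 30.5% in all DNA outside genes. Per run the span held 21.0 to 36.2%, with a median of 26.6%. The 1248 kb of run span that lay more than 250 bp from every run summit held 29.5% GC. All intervals between genes of 5 to 10 kb held 29.9%, and those over 10 kb held 30.3%. Around run summits the mean was 29.3% at 1000 bp upstream and 32.1% at 3000 bp upstream on the forward strand, against 31.9 and 35.1% for chains of 2 or 3 and 35.5 and 35.6% for summits alone. Each run summit has others within this distance by the rule, so part of this shape is fixed by the choice.

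**Figure D4:**
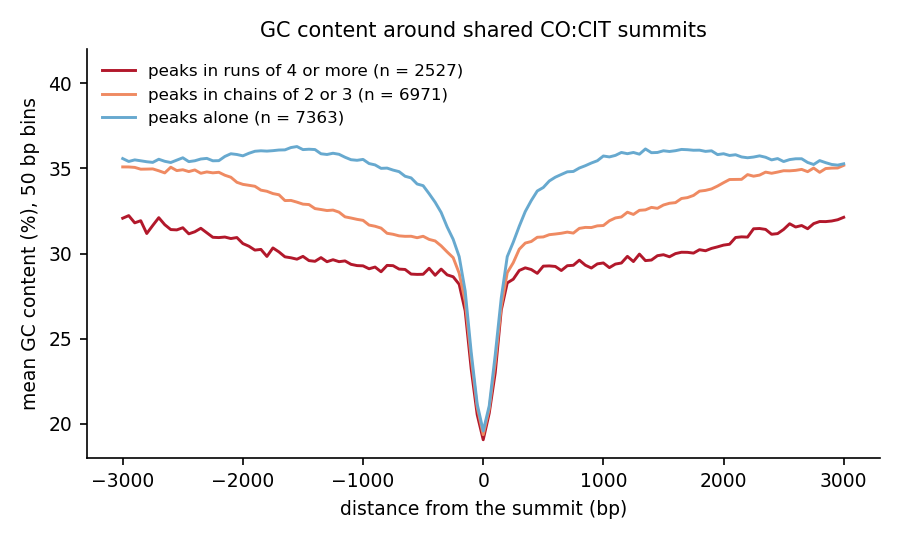
Mean GC content in 50 bp bins (vertical axis) against the distance from the summit in bp, for peaks in runs (red, n = 2527), in chains of 2 or 3 (orange, n = 6971) and alone (blue, n = 7363). All curves dip to between 19.1 and 19.6% at the summit, and at 1000 bp the red curve lies near 29.4% and the blue one near 35.7%.

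The runs with the most summits had different neighbours. The run of 13 summits stood between the pseudogene AT2G14840 and AT2G14850, annotated as a SAGA subunit, and enclosed the pseudogene AT2G14843 and AT2G14846, annotated as a lipid-transfer-like protein. The run of 11 summits lay wholly in an 11524 bp interval between AT5G38000, annotated as a zinc-binding dehydrogenase, and the noncoding RNA gene AT5G38005. A run of 9 summits at chr2:9516852-9525976 (median fold enrichment 3.20 in replicate 1 and 3.21 in replicate 2) ended 11 bp from the 3′ end of HB6 (AT2G22430), a homeodomain-leucine zipper gene known as a negative regulator of ABA responses, and 8 of its summits lay in 1 interval of 8601 bp. Another run of 9 at chr4:7383934-7391261 (3.12 and 3.63) enclosed AT4G12450, annotated as a C2H2 zinc finger gene, and reached ORP2B. Of the named runs of 8 summits, that at chr3:16404831-16412671 (3.04 and 3.89) began 6 bp from CHX10, a cation/H+ exchanger gene, that at chr2:12315625-12324129 (2.79 and 2.96) enclosed the MADS-box gene AGL46, and that at chr2:4347967-4357014 (3.90 and 4.65) began inside MAK10. The remaining 3, at chr1:16818798-16828862 (3.57 and 3.38), chr5:13195358-13205147 (3.82 and 4.14) and chr4:6091405-6099623 (3.45 and 3.59), met only genes with no symbol in the annotation. The first of these held 68.7% and the second 59.9% unique 30-base words at its summits, against a median of 96.8% over all runs.

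The runs with the highest median fold enrichment were short. After the chromosome 2 run of 5 summits (5.58 in replicate 1 and 5.24 in replicate 2) came runs of 4 summits at chr2:5588448-5592293 (5.13 and 4.48) and chr2:5607314-5612423 (5.09 and 5.41), a run of 5 at chr1:13904957-13908661 (4.93 and 4.90) and a run of 4 at chr3:11761614-11766035 (4.89 and 4.56). All 5 lay in gene-poor windows. The chromosome 1 run met no run when replicate 2 was chained, and neither did the 10737 bp run of 7 summits at chr2:2338947-2349683 (3.78 and 4.06), which enclosed AT2G06020, annotated as homeodomain-like.

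The run at KNAT3 (AT5G25220), a class II KNOTTED1-like homeobox gene, filled the upstream interval of a regulatory gene. All 8 summits of chr5:8727912-8736084 lay in the 8868 bp between the long noncoding RNA gene AT5G03935 and the KNAT3 start, and the last peak reached past that start. The last summit, 159 bp before it, was the highest in both replicates (5.99 and 6.59). The second was next in both, with 4.19 and 4.65. The other 6 summits lay between 2.46 and 3.69 in replicate 1 and between 2.79 and 4.14 in replicate 2.

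**Figure D5:**
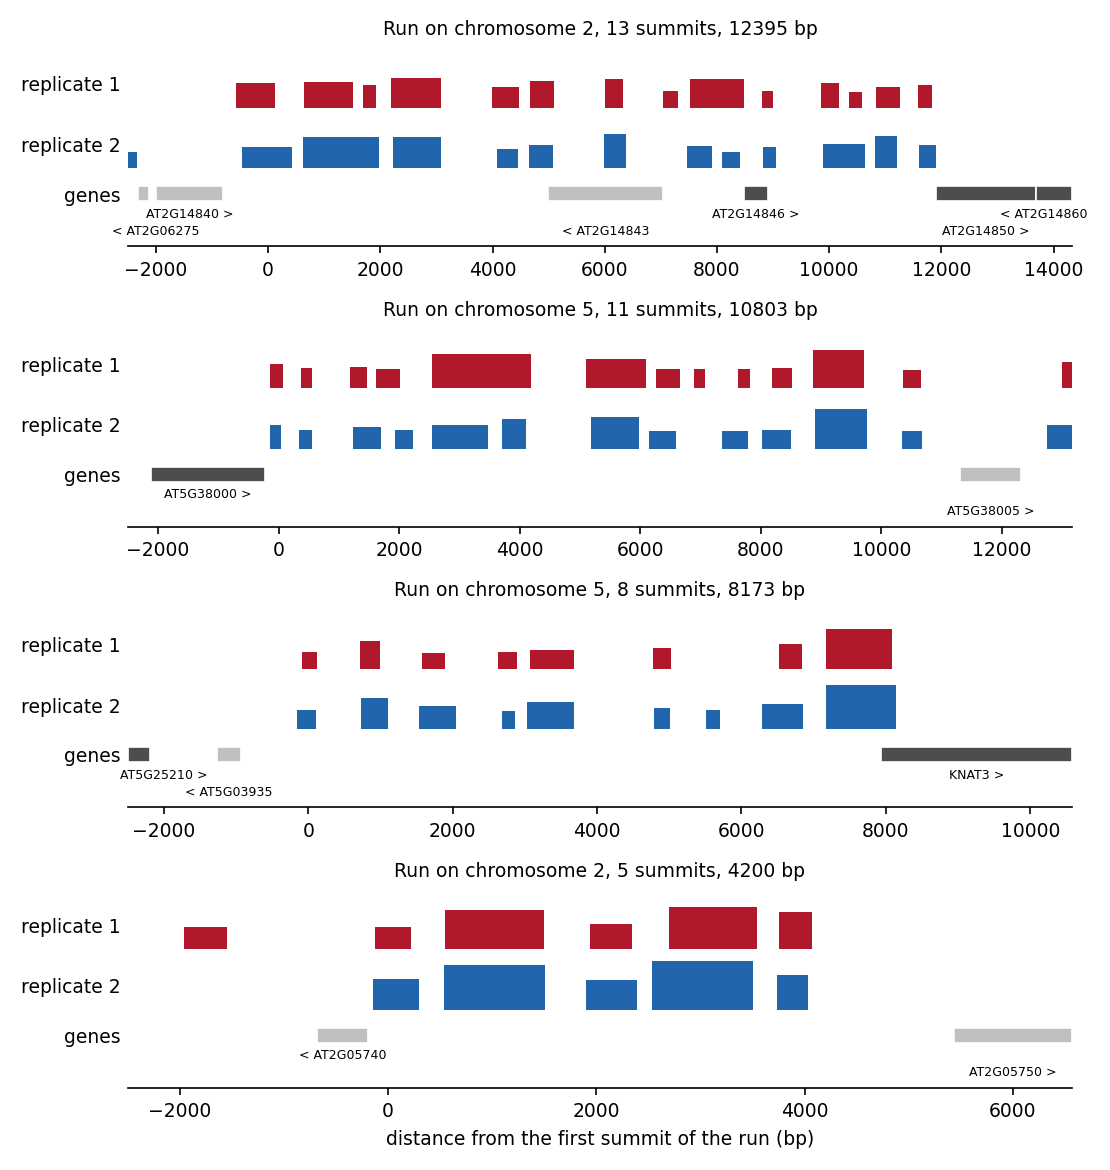
Maps of 4 dense runs against the distance from the first summit in bp. Bars are all deposited peaks of replicate 1 (red) and replicate 2 (blue) with height in proportion to fold enrichment, and gene bars are dark for protein-coding genes and light for pseudogenes and noncoding RNA genes, with an arrow for the strand. The panels show the runs of 13, 11, 8 and 5 summits, with KNAT3 at the right end of the third panel.

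Genes whose 5′ end faced a run were further described by their annotated products. The 305 runs with at least 4 summits in 1 interval had 610 flanking genes when counted once per run, of which 411 were protein-coding, 138 pseudogenes and 61 noncoding RNA genes. Of distinct protein-coding genes, 258 faced a run's interval with the 5′ end and 149 with the 3′ end. Products with a homeobox or homeodomain word, a class added after these values were seen and including MYB-type genes annotated as homeodomain-like, made up 7 of the 258 (2.71%) and 10 of the 361 genes met by runs (2.77%), against 0.714% of all protein-coding genes. KNAT3 counts in both groups. The 258 genes all lie beside intervals that held 4 or more summits, so all protein-coding genes are an unlike set. The part that interval length has in these shares was not tested. Examples chosen after their values were seen are STM, which maintains the shoot meristem, with a run of 4 summits at chr1:23063339-23067252 (3.12 and 3.46) in its 5983 bp upstream interval, and WOX11, which acts in adventitious root founder cells, with 4 summits at chr3:894082-898258 (2.46 and 2.87). KAN, a regulator of organ polarity, had 5 at chr5:5414737-5418777 (2.75 and 3.21), and TRY, a repressor of trichome fate, had 5 at chr5:21575188-21579926 (2.79 and 3.63). The medians of these 4 runs in replicate 1 lay below that of all runs, 3.33.

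Cytochrome P450 genes, which code for oxidases of small molecules, made up 8 of the 258 genes that faced a run with the 5′ end (3.10%) and 2 of the 361 met by runs (0.554%), against 0.794% of all protein-coding genes. CYP94D1 faced a run of 6 summits at chr1:12631103-12636649 (4.47 and 4.23), and CYP702A5 faced a run of 7 at chr4:8795744-8802686 (3.04 and 3.13). The next run, of 4 summits at chr4:8804430-8809827 (3.49 and 3.51), overlapped CYP702A5 and its neighbour CYP702A6. Defensin-like genes, which code for small secreted cysteine-rich peptides, were mostly met by the runs themselves, with 19 of the 361 (5.26%) and 2 of the 258 (0.775%), against 0.485% of all protein-coding genes. Several lay as neighbours in the same run, such as LCR68 and LCR72 at chr2:539033-546468 (5 summits, 3.86 and 4.14) and LCR22 and LCR21 at chr4:14427533-14431518 (4 summits, 2.87 and 3.04). Protein-coding genes met by runs had a median length of 1462 bp, against 2078 bp for all. The part that gene length, interval length and tandem clustering have in these shares was not tested. Higher shares among the 361 were also found for 5 peroxidase genes (1.39%, against 0.368% of all) and 4 MADS-box genes (1.11%, against 0.437%). For 8 pectin and cell wall genes it was 2.22%, against 0.929%. On fewer genes, shares were also higher for 3 SAUR genes (0.831%, against 0.284%) and 2 WRKY genes (0.554%, against 0.262%). So were those of 2 transposon-related genes (0.554%, against 0.372%) and 1 terpene synthase gene (0.277%, against 0.0547%). Some other classes had lower shares among the 361. F-box genes made up 7 of the 361 (1.94%), against 2.38% of all, and receptor kinase genes 0 of the 361, against 0.554%.

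ABA genes were the only list of the 5 with members within 2000 bp of a run. Of 40 genes of ABA synthesis, signalling and response, 4 (10%) were, against 941 of all 27444 protein-coding genes (3.43%). None of 33 flowering time genes, 12 circadian clock genes, 9 NF-Y subunit genes and 19 phloem genes was. Of these, 20, 6, 4 and 14 had a shared peak, as did 27 of the 40 ABA genes. The share of all protein-coding genes with a shared peak was not counted, so these numbers are no result about the lists. The lists are small and were chosen with earlier results of these data known, and these counts carry no test. Of the 4 ABA genes, NCED3 and NCED5 stood 1897 and 1920 bp from their runs, just inside the 2000 bp limit. The share of 10% therefore depends on that limit. NCED3 and NCED5 code for dioxygenases that cleave carotenoids in ABA synthesis. The near edge of the run of 4 summits at chr3:4835913-4839712 lay 1897 bp upstream of NCED3, in a 15523 bp interval. The summits of this run, which lay further upstream than its edge, had 2.63, 3.04, 4.93 and 4.11 in replicate 1. In replicate 2 they had 2.45, 2.70, 2.96 and 3.13. The third summit was the highest in replicate 1 but not in replicate 2. For NCED5, the near edge of the run of 4 summits at chr1:10565246-10569389 lay 1920 bp upstream, in a 9764 bp interval. The summits of that run had 2.71, 3.12, 5.17 and 3.61 in replicate 1 and 3.38, 3.21, 5.15 and 3.38 in replicate 2. Here the third summit was the highest in both.

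PYL1 and PYL2 code for ABA receptors and lay inside their runs. The run at PYL2, chr2:11093520-11098533, had 5 summits with 5.01, 3.20, 3.86, 3.12 and 5.34 in replicate 1 and 5.15, 2.96, 3.38, 3.97 and 4.90 in replicate 2. The outer summits were the highest in both replicates, and only the second lay in the gene, in an untranslated exon. The run at PYL1, chr5:18982489-18986394, had 4 summits with 3.86, 4.60, 3.45 and 3.45 in replicate 1 and 3.21, 3.63, 3.63 and 3.30 in replicate 2. All summit windows of the NCED3, PYL1 and PYL2 runs were fully unique.

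SUC2::CO:CIT aba1-6 peaks were not found in the runs. Of the 2527 run peaks, 0 overlapped a peak of SUC2::CO:CIT aba1-6 replicate 1 and 0 a peak of replicate 2. This allows a share of up to 0.119% in each, by counting error only and with peaks taken as independent, which neighbours in a run are not. Among all 16861 shared peaks, 10 (0.0593%) overlapped a peak of replicate 1 and 14 (0.083%) a peak of replicate 2, so a count of 0 or a few among run peaks is near this background and is no result about the runs. Scaled by the ratio of the backgrounds, the median run peak of SUC2::CO:CIT replicate 1 would hold 12.4 fragments at the depth of SUC2::CO:CIT aba1-6 replicate 1 and 2.70 at that of replicate 2. The fewest fragments of a called peak at the genome background were 11 and 5 in these libraries. By this scaling 1839 run peaks (72.8%) reached the fewest fragments of SUC2::CO:CIT aba1-6 replicate 1, and 26 (1.03%) those of replicate 2. The run peaks were chosen for being called in SUC2::CO:CIT, so a difference between the genotypes at them is fixed by the choice. The scaling, added after values were seen, therefore says nothing of the genotypes. The low mapping rates that the study's methods describe for these libraries were not tested as a part of the difference.

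Each library was also chained by itself. Of the libraries' own peaks, 7.14% and 3.49% stood in own chains of at least 4 in the SUC2::CO:CIT aba1-6 replicates, against 21.4% and 24.1% in the SUC2::CO:CIT replicates. The difference of the means was −17.5 percentage points, with p = 0.333 in a two-sided exact permutation test over the 4 libraries, the smallest p that 2 against 2 libraries can give. The SUC2::CO:CIT lists are those that chose the runs, and far fewer peaks leave fewer neighbours within 2000 bp. The number of peaks and the genotype cannot be told apart here, so the test says nothing of the genotypes. The SUC2::CO:CIT aba1-6 peaks in own chains were 12 and 9, in 1 chain each, both at the 45S ribosomal RNA genes of chromosome 3 (chr3:14194649-14203946 and chr3:14198009-14203952), where the local background reached 47.8 and 10.97 fragments. With only peaks of −log10 q-value of at least 5, the difference turned to +23.8 percentage points, because 27 and 28 SUC2::CO:CIT aba1-6 peaks remained and the same chains made up 44.4% and 32.1% of them, against 13.8% and 15.2% in SUC2::CO:CIT. The SUC2::CO:CIT libraries had 917 and 1116 own chains.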

How the data were processed

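Peak lists of 4 ChIP libraries were analysed, 2 per genotype, and inputs entered only through the authors' peak calling. For each ChIP library the authors used fastp for trimming, Bowtie2 for alignment to the TAIR10.1 genome and MACS2 for peaks over its input, and versions are not given in the sources used here. Reads with several mapping places can shift or remove peaks, which is why uniqueness is given beside the results. The deposited fold enrichment is a ratio of summit fragments to local background, each with a pseudocount of 1, so libraries of different depth are not on the same scale. The −log10 p-values and −log10 q-values are as the authors deposited them, and the deposited score was not used. Fragments and background at each summit were recovered from fold enrichment and p, within a tolerance of 0.005 for 100% of peaks in every library, after the step was tested on simulated data.

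Coordinates are 1-based TAIR10.1, whose RefSeq chromosome accessions are those of the files, and genes, products and sequences come from its RefSeq annotation. GC was taken in 200 bp and words in 100 bp around summits. Run peaks share chromosomes and libraries and are not replicates, so values over runs are descriptions. The only test was the exact permutation over 4 libraries.

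The runs and gene lists were chosen with earlier results of these data known. Runs are named if among the 10 with the most summits, the 5 longest, the 5 with the highest median replicate 1 fold enrichment, the run with most summits of each chromosome, or within 2000 bp of a listed gene. The homeobox class and its examples, the P450 and defensin-like examples, the search for copies within runs and the scaling to the aba1-6 depths were added after values were seen. For the largest run only the highest and lowest summit windows are printed, although all had been planned. Alternatives were chain distances of 1000 and 3000 bp, 3 or 5 summits, 50% reciprocal overlap, a −log10 q-value of at least 5, replicate 2 as the base, leaving out gene-poor windows, other GC windows, protein-coding genes only, leaving out each library and a replicate block. Python 3.11.15, numpy 2.4.6, pandas 2.3.3, scipy 1.17.1, Biopython 1.88 (local alignment with match 2, mismatch −3, gap opening −5 and extension −2) and matplotlib 3.10.9 were used.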

Additional observations from a re-analysis of the deposited data

How the results depend on the processing

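The number of runs, 536, was 84 with a chain distance of 1000 bp, 908 with 3000 bp, 1337 with at least 3 summits, 219 with at least 5, 246 with 50% reciprocal overlap and 256 with a −log10 q-value of at least 5 in both replicates. The share of shared peaks in runs, 15.0%, was 2.08%, 27.7%, 29.2%, 7.47%, 8.04% and 9.16% under the same settings. The median fold enrichment of run peaks minus other shared peaks in replicate 1 was 0 as reported. It was 0.0821 with at least 5 summits, 0.0821 with the q-value limit and 0.0547 without gene-poor windows. With replicate 2 as the base the difference was 0. The GC difference of −0.53 percentage points was −0.78 with 1000 bp, −0.61 with the q-value limit, −0.44 with replicate 2 as the base, −0.40 in 100 bp around the summit and −0.42 over the whole peak, but within gene-poor windows run peaks were not lower (20.22%, against 20.15% in other shared peaks). The width difference of 20 bp turned to −4 bp with 1000 bp, and was 23 bp with 3000 bp, 27 bp with at least 5 summits, 29 bp with the q-value limit, 16 bp with replicate 2 as the base and 15 bp without gene-poor windows; the cause was not tested. The share outside genes, higher by 2.49 percentage points in run peaks, was higher by 4.15 with 1000 bp, 1.33 with 3000 bp and 1.42 with replicate 2 as the base.

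For own chains, the difference of −17.5 percentage points lay between −19.3 and −15.6 when each library was left out in turn. It was −1.02 with 1000 bp, −31.0 with 3000 bp and −31.2 with at least 3 summits, and with the q-value limit it turned to +23.8. With the replicate number as a block it stayed −17.5 with p = 0.5 in an exact permutation test, the smallest 2 pairs can give, and the numbers share only a name. Depth limits every statement on SUC2::CO:CIT aba1-6.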
